A study of Rosa hybrid cultivar with 39 samples.

Results

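Abscisic acid (ABA) and gibberellic acid 3 (GA3) were compared directly in petals of cut roses, gene by gene, and the water control shared by both was used to say which of the 2 averages lay away from untreated petals. The plant was Rosa hybrida 'Samantha', a red hybrid tea rose grown for cut flowers. Stems cut at opening stage 2 stood for 24 h in 100 µM ABA, in 80 µM GA3 or in water (H2O), and RNA came from the outer petals. Each group had 3 replicates of 4 flowers, so the comparison rests on 6 of the 39 samples of the study, beside 3 samples in H2O. By the labels, the groups differed in the vase solution alone. Because the hormones were taken up through the stem at different concentrations, nothing is read here about their relative strength. The petal identity of the samples could not be checked with marker genes, since the deposited genes have identifiers and no names.

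The deposited values are 1 average per transcript and condition, in FPKM (fragments counted relative to transcript length and library size). The spread between the 3 replicates is not in these averages. No difference below was tested, and none has a p-value or an error. Transcripts of 1 gene identifier were added up. Of 30208 identifiers, 14258 had at least 1 FPKM in ABA or in GA3 and were compared. Each ratio is given as the log2 of FPKM plus 1 in ABA over that in GA3, a scale that understates differences of genes with low values. A gene is described as higher in 1 condition when this ratio is at least 1 in size, that is 2-fold. Positions are the deposited loci on the genome RchiOBHm-V2 of Rosa chinensis 'Old Blush'.

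As background, ABA accumulates in plants that lose water. It binds soluble receptors that hold back a group of protein phosphatases, which frees protein kinases to activate transcription factors of the bZIP family. It is known for closing stomata, for keeping seeds dormant and, in petals, for hastening senescence. Gibberellins bind the receptor GID1, and the complex marks the DELLA proteins, which restrain growth, for degradation. They are known for stem growth, germination and petal expansion, and in many tissues they act in opposition to ABA.

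ABA and GA3 lay at least 2-fold apart at 2831 of the 14258 genes. Of these genes 1174 were higher in ABA, which is 8.23% of those compared, and 1657 were higher in GA3, which is 11.6%. At least a 4-fold ratio was seen at 435 genes, 187 higher in ABA and 248 higher in GA3. The log2 ratio of ABA over GA3 had a median of -0.05 and an SD of 0.85 across genes, with a 1st percentile of -2.28 and a 99th of 2.13. GA3 thus held 58.5% of the genes apart, and this split depended on the scaling of the averages. When the averages were scaled to equal medians, a factor of 0.10 on the log2 scale for ABA over GA3 with a median ratio of 0.04, 50.8% of the genes apart were higher in GA3. When they were scaled to equal sums of FPKM, a factor of -0.26 on the log2 scale with a median ratio of -0.28, 75.2% were. Genes stood close to the threshold on both sides. The 3 genes just inside it had log2 ratios of 1.0002, 1.0003 and 1.0004, and the 3 just outside 0.9995, 0.9991 and 0.9989. Towards GA3, those inside were at -1.0002, -1.0004 and -1.0011, and those outside at -0.9998, -0.9996 and -0.9992.

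The distance of each treatment from H2O was read over the same 14258 genes. ABA was at least 2-fold above H2O at 442 genes, which is 3.1%, and below it at 252, which is 1.77%. GA3 was above H2O at 1083 genes, 7.6%, and below it at 466, 3.27%. Both averages were within 2-fold of H2O at 12175 genes. The 2 ratios share the H2O average, so an error in that average moves both of them at once.

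**Figure D1:**
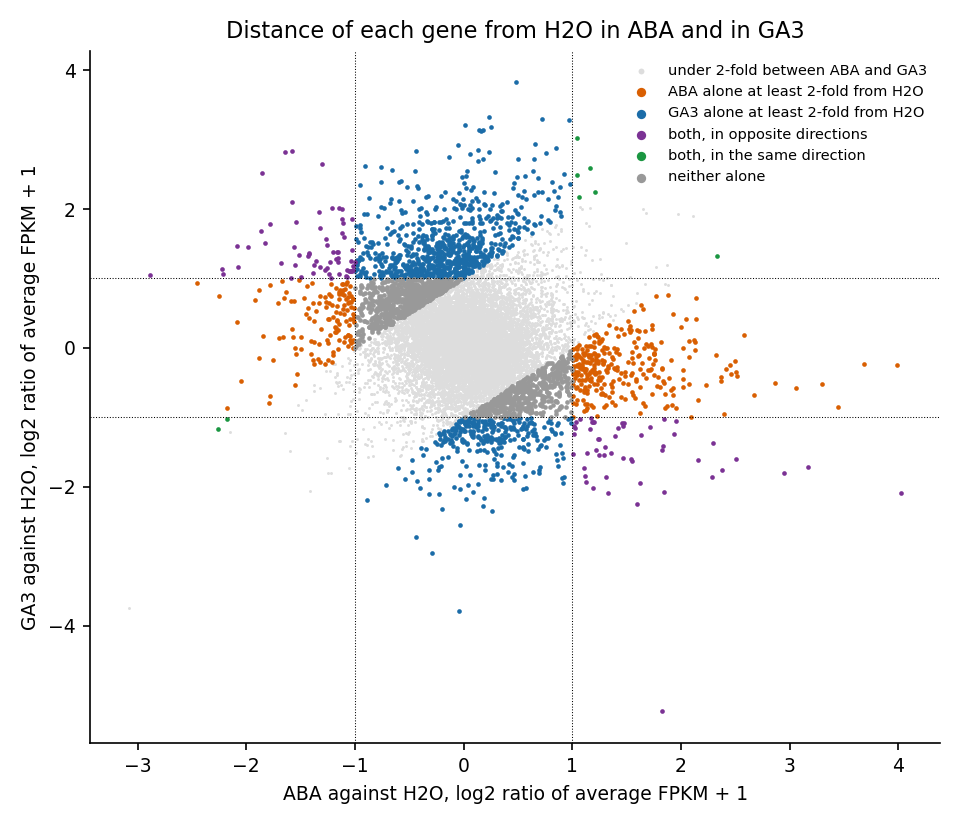
Each point is a gene, with the log2 ratio of ABA over H2O on the x axis and of GA3 over H2O on the y axis, both from average FPKM plus 1. Coloured and dark grey points are the 2831 genes at least 2-fold apart between ABA and GA3, dotted lines mark 2-fold from H2O, and the upper blue group, with GA3 alone above H2O, is the most numerous coloured group with 783 genes.

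Genes higher in ABA than in GA3 stood apart from H2O about as often on either side. ABA alone was at least 2-fold from H2O at 295 of the 1174 genes, 25.1%, in every case above it. GA3 alone was at least 2-fold from H2O at 305 genes, 25.98%, in every case below it. At 52 genes, 4.43%, ABA was above H2O and GA3 below it, each by at least 2-fold. At 521 genes, 44.4%, neither treatment reached 2-fold from H2O, and the ratio between ABA and GA3 came from shorter distances on both sides of H2O. The near balance of the sides moved with the scaling, with 283 genes for ABA alone and 437 for GA3 alone at equal medians and 230 and 194 at equal sums of FPKM. At 1 gene both treatments were at least 2-fold above H2O, with ABA the higher.

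Among genes higher in GA3, more were apart from H2O on the GA3 side than on the ABA side. GA3 alone was at least 2-fold above H2O at 783 of the 1657 genes, 47.3%. ABA alone was at least 2-fold below H2O at 131 genes, 7.91%. The GA3 side was also the larger at equal medians, with 598 genes against 145, and at equal sums, with 1099 against 163. With a pseudocount of 0.1 its lead was narrower in proportion, with 1018 genes against 326. At 64 genes, 3.86%, GA3 was above and ABA below H2O. At 672 genes, 40.6%, neither reached 2-fold from H2O. At 7 genes both treatments were at least 2-fold from H2O on the same side, 5 above it and 2 below it. In both directions together, the GA3 side alone accounted for 1088 genes, the ABA side alone for 426, opposite sides for 116, both at least 2-fold on the same side for 8 and neither alone for 1193.

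**Figure D2:**
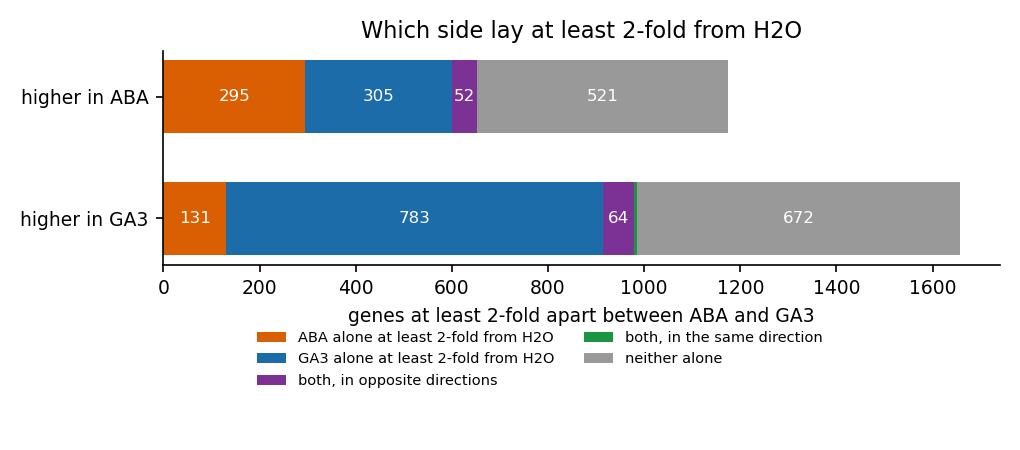
Bars count the genes with at least a 2-fold ratio between ABA and GA3, split by which average was at least 2-fold from H2O. GA3 alone takes 305 of the genes higher in ABA and 783 of the genes higher in GA3, and ABA alone takes 295 and 131.

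The same averages and genes were also read without a threshold on the distance from H2O, which is not separate evidence. Among genes higher in GA3, the GA3 average was farther from H2O than the ABA average at 1281, 77.3%, and ABA was farther at 376. Among genes higher in ABA, GA3 was farther at 636, 54.2%, and ABA at 538. With averages of equal sums, ABA was farther at 51.3% of the genes higher in ABA, so the lead of GA3 there was not fixed. The share of the gap between ABA and GA3 that lay on the GA3 side of H2O had a median of 53.0% for genes higher in ABA, with quartiles of 29.7% and 74.2%. For genes higher in GA3 the median was 68.8%, with quartiles of 52.1% and 88.7%. H2O lay between the treatments at 1035 of the genes higher in ABA and at 1372 of those higher in GA3. At the other genes both treatments were on the same side of H2O, GA3 the farther at 81 and 261 genes and ABA at 58 and 24.

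The side classes differed in their levels in water. They were chosen by their ratios to this same H2O average, so their order in water follows in part from the choice. On the log2 scale used, a gene with very low FPKM in water can be 2-fold above H2O but not 2-fold below it. How much of the differences in level came from the choice was not tested. Genes at which only ABA was above H2O had a median of 5.70 FPKM in H2O, 18.8 in ABA and 5.18 in GA3. Genes at which only GA3 was below H2O were more abundant, with medians of 28.4 in H2O, 34.9 in ABA and 10.2 in GA3. Genes at which only GA3 was above H2O were low in water, with medians of 2.62 in H2O, 2.12 in ABA and 9.75 in GA3. Genes at which only ABA was below H2O had medians of 7.45 in H2O, 2.31 in ABA and 10.8 in GA3.

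The genes with the largest ratios were apart on both sides of H2O. LOC112176750 (NC_037094.1, bases 10460736 to 10468403) averaged 7.49 FPKM in H2O, 137 in ABA and 1.00 in GA3. Its log2 ratio of ABA over GA3 was 6.11, of which 4.03 lay above H2O and -2.08 below it. In the other conditions it ranged from 2.00 in salicylic acid (SA) to 13.7 in the auxin NAA, so ABA stood alone at the top and GA3 at the bottom. LOC112190697 (NC_037089.1, bases 79224368 to 79225084) averaged 29.2 in H2O, 231 in ABA and 7.67 in GA3, with a log2 ratio of 4.74. ABA was far above every other condition at this gene, whereas GA3 was close to air, the lowest, at 7.37.

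LOC112187601 (NC_037089.1, bases 30542153 to 30586886) had the largest ratio of all genes compared. It was at 36.6 FPKM in H2O and 132 in ABA and was listed at nearly 0 in GA3, which gives a log2 ratio of 7.06. It was also listed at nearly 0 in AgNO3 and in the brassinosteroid (BR), and it was at 107 in the cytokinin 6-BA. This locus is shared by 4 identifiers, and how reads were divided between them is not known. LOC112187519 at the same locus was at 33.95 in H2O, 84.4 in ABA and 23.3 in GA3, a log2 ratio of 1.81. The sum over the 4 identifiers was 83.6 in H2O, 229 in ABA and 36.1 in GA3, a log2 ratio of 2.63. The direction was thus the same for the locus as a whole, and the size was not. Of the 14258 genes compared, 2451 share a locus with another identifier, and 507 of these were among the 2831 apart. The genes named in the following 3 paragraphs have a locus of their own.

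Opposite sides with GA3 the higher were seen at LOC112190944 (NC_037089.1, bases 82118236 to 82120327), with averages of 3.69 FPKM in H2O, 0.503 in ABA and 32.2 in GA3. Its log2 ratio of ABA over GA3 was -4.47, the largest towards GA3 among genes named here. LOC112176814 (NC_037094.1, bases 45573138 to 45576027) averaged 2.00 in H2O, 0.00154 in ABA and 20.4 in GA3, a log2 ratio of -4.42. At both genes ABA was the lowest of the 12 conditions analysed. GA3 was the highest at the first gene and was exceeded at the second by BR, JA and AgNO3, at 32.8, 28.5 and 23.3.

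On the ABA side, LOC112164895 (NC_037092.1, bases 388238 to 388969) averaged 1.96 FPKM in H2O, 31.2 in ABA and 0.645 in GA3, a log2 ratio of 4.29. LOC112198732 (NC_037091.1, bases 8264660 to 8265053) averaged 0.549 in H2O, 18.9 in ABA and 0.319 in GA3, a log2 ratio of 3.92. On FPKM plus 1, GA3 stayed within 2-fold of water at both genes, with log2 ratios of GA3 over H2O of -0.85 and -0.23. By FPKM alone, GA3 was more than 2-fold below water at LOC112164895, so its class depends on the pseudocount. With ABA the lower, LOC112198297 (NC_037091.1, bases 2963098 to 2970326) averaged 6.29 in H2O, 0.328 in ABA and 12.9 in GA3, a log2 ratio of -3.39. By FPKM alone, GA3 was more than 2-fold above water at LOC112198297, so its class also depends on the pseudocount. LOC112168074 (NC_037092.1, bases 70413193 to 70414188) averaged 25.8 in H2O, 4.63 in ABA and 44.0 in GA3, a log2 ratio of -2.997. This gene varied more across the study than between the 2 hormones, from 3.05 in 1-MCP, an inhibitor of ethylene perception, to 624 in SA.

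On the GA3 side, LOC112180243 (NC_037088.1, bases 60749936 to 60750987) averaged 10.7 FPKM in H2O, 20.9 in ABA and 2.21 in GA3, a log2 ratio of 2.77. LOC112192775 (NC_037090.1, bases 33497734 to 33499295) averaged 29.1 in H2O, 23.6 in ABA and 2.88 in GA3, a log2 ratio of 2.66. Both were low in GA3 and near water in ABA by the 2-fold rule. Among genes at which only GA3 was below H2O, the largest log2 ratio was 3.74, at a gene not named here. With GA3 the higher, LOC112165369 (NC_037092.1, bases 28993010 to 28996924) averaged 3.87 in H2O, 1.60 in ABA and 28.9 in GA3, a log2 ratio of -3.52. LOC112174051 (NC_037093.1, bases 51527709 to 51528868) averaged 0.480 in H2O, 1.07 in ABA and 19.99 in GA3, a log2 ratio of -3.34. It reached 39.8 in jasmonic acid (JA), so GA3 was not its highest condition. By FPKM alone, ABA was more than 2-fold below water at LOC112165369 and more than 2-fold above it at LOC112174051. The class of both genes thus depends on the pseudocount.

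**Figure D3:**
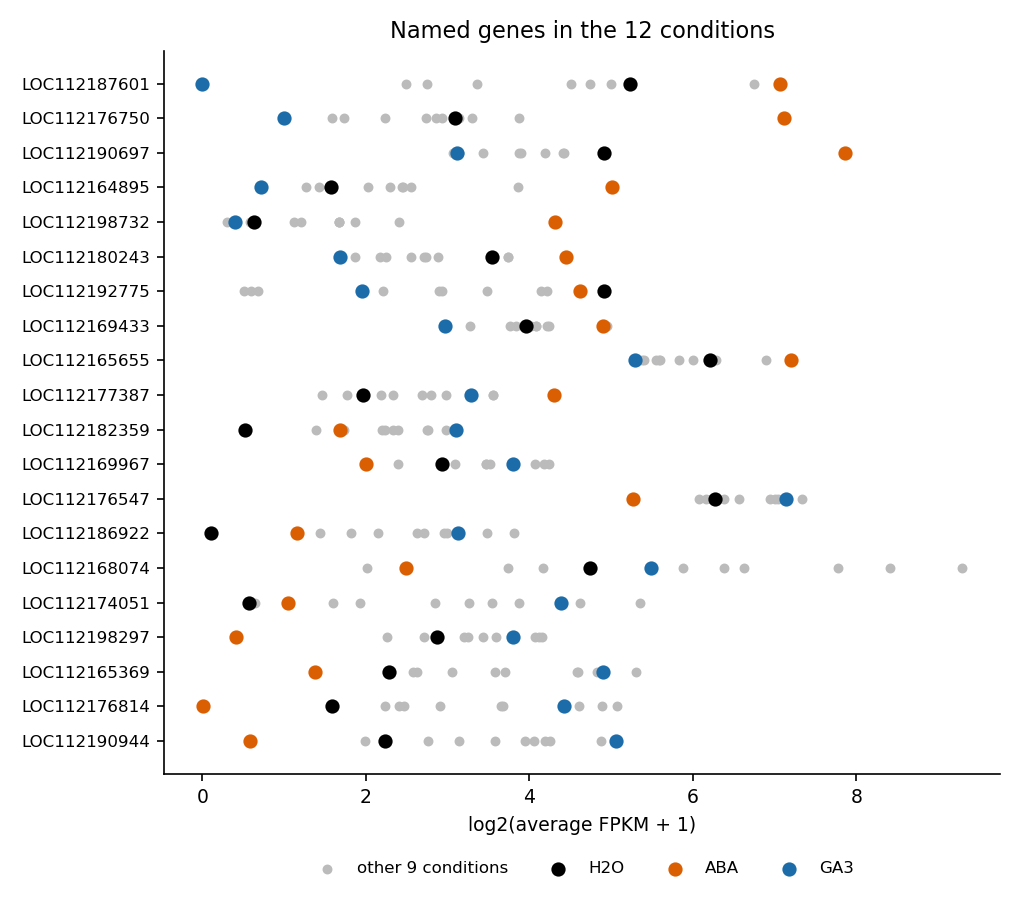
Points give log2 of average FPKM plus 1 for the named genes in each of the 12 conditions, with H2O in black, ABA in orange, GA3 in blue and the other 9 conditions in grey. ABA lies at 137 FPKM at LOC112176750, apart from all other conditions, while GA3 is within the range of the other conditions at LOC112174051, with 19.99 FPKM against 39.8 in JA.

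Where neither treatment alone reached 2-fold from H2O, water lay between the treatments, as the definition requires. LOC112165655 (NC_037092.1, bases 8703653 to 8704385) averaged 73.0 FPKM in H2O, 145 in ABA and 38.2 in GA3, a log2 ratio of 1.90. LOC112169433 (NC_037093.1, bases 14749065 to 14751294) averaged 14.6 in H2O, 28.9 in ABA and 6.82 in GA3, a log2 ratio of 1.93. In the other direction, LOC112176547 (NC_037094.1, bases 4292011 to 4295193) averaged 76.0 in H2O, 37.6 in ABA and 140 in GA3, a log2 ratio of -1.87. LOC112169967 (NC_037093.1, bases 60450043 to 60454535) averaged 6.63 in H2O, 2.99 in ABA and 12.97 in GA3, a log2 ratio of -1.81. This class can hold no log2 ratio of 2 or more. On FPKM plus 1, its genes are not found by a comparison of either hormone with water at 2-fold. By FPKM alone, GA3 was more than 2-fold below water at LOC112169433, as was ABA at LOC112176547 and LOC112169967. The class of these 3 genes thus depends on the pseudocount.

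Both treatments were at least 2-fold from H2O on the same side at 8 genes, a count that became 60 with a pseudocount of 0.1. LOC112177387 (NC_037088.1, bases 64295288 to 64298176) averaged 2.92 FPKM in H2O, 18.7 in ABA and 8.76 in GA3. It is the 1 gene of these 8 with ABA the higher, and its log2 ratio of 1.01 became 0.78 with averages of equal sums. LOC112186922 (NC_037089.1, bases 67653461 to 67668416) averaged 0.0803 in H2O, 1.23 in ABA and 7.77 in GA3, a log2 ratio of -1.98. LOC112182359 (NC_037088.1, bases 54455266 to 54459445) averaged 0.430 in H2O, 2.21 in ABA and 7.58 in GA3, a log2 ratio of -1.42. At both genes H2O was the lowest of the 12 conditions. The 2 genes at which both treatments were at least 2-fold below water were LOC112166164, at 55.1 in H2O, 10.7 in ABA and 24.04 in GA3, and LOC112177314, at 3.52 in H2O, 1.34e-05 in ABA and 1.22 in GA3. Both of these share their locus with other identifiers.

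Genes higher in ABA were more abundant in H2O and in ABA than genes higher in GA3, and less abundant in GA3. Their medians were 16.2 FPKM in H2O, 27.3 in ABA and 8.25 in GA3, against 3.87, 2.39 and 9.62 for genes higher in GA3. The sets were chosen by the ABA and GA3 averages, so their order in those 2 follows in part from the choice. Genes under 2-fold apart had medians of 9.76, 9.86 and 10.3. The direction varied with the level in the higher of the 2 conditions. From 1 to 5 FPKM, 225 of 4418 genes were higher in ABA, 5.09%, and 497 in GA3, 11.2%. From 5 to 20 FPKM 298 and 648 of 4321 genes were higher in ABA and in GA3, and from 20 to 100 FPKM 345 and 390 of 3748 genes. At 100 FPKM and above, 306 of 1771 genes were higher in ABA, 17.3%, and 122 in GA3, 6.89%. With averages of equal medians the shares in this last group were 21.2% and 5.60%, and with equal sums of FPKM they were 9.61% and 11.8%, with GA3 in the lead. The rise of the ABA share with level was present under all 3 scalings, and the majority for ABA among abundant genes was not. The level groups were not recounted with another pseudocount. The sum of FPKM was 897264 in H2O, 962395 in ABA and 805114 in GA3, and which scaling fits the libraries was not tested.

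**Figure D4:**
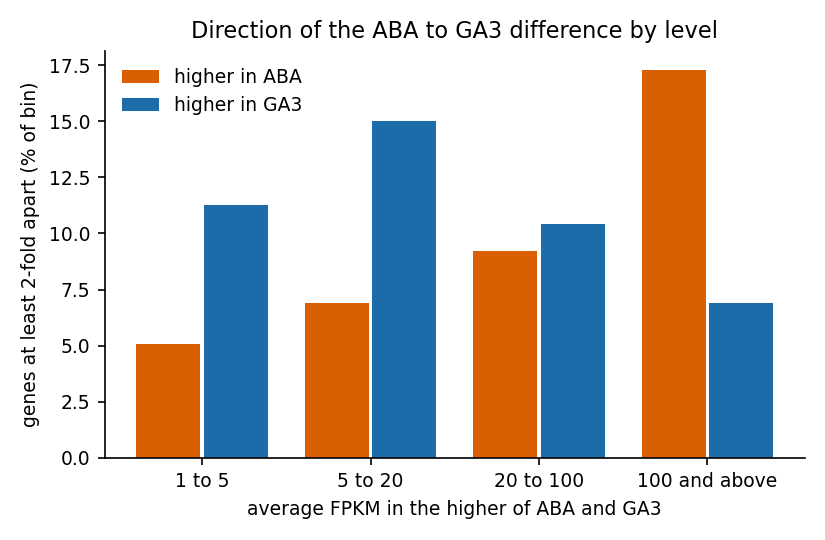
Bars give the percent of genes at least 2-fold higher in ABA or in GA3, grouped by the average FPKM in the higher of the 2 conditions, with averages as deposited. The ABA share goes from 5.09% of genes at 1 to 5 FPKM to 17.3% at 100 FPKM and above, where the GA3 share is 6.89%, but at equal sums of FPKM the shares there are 9.61% and 11.8%.

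Among the 20 most abundant genes, 3 were higher in ABA, 1 was higher in GA3 and 16 were under 2-fold apart. Over all genes compared 19.9% were apart, so the share apart in this group was near that of all genes. LOC112169074 (NC_037093.1, bases 62804012 to 62804874) averaged 4757 FPKM in H2O, 6551 in ABA and 1275 in GA3, a log2 ratio of 2.36 on the GA3 side. Only BR was lower at this gene, at 871. LOC112189201 was at 7129 in H2O, 11611 in ABA and 4062 in GA3, and LOC112195332 at 9820, 11179 and 5131. LOC112179457 was at 5296 in H2O, 3013 in ABA and 6489 in GA3, the 1 gene of this group higher in GA3. The most abundant gene, LOC112199140, was at 42339 in H2O, 42622 in ABA and 26619 in GA3, a log2 ratio of 0.68.

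The other conditions of the study were then placed between ABA and GA3 at these genes. At each gene a condition was counted as nearer GA3 when its log2(FPKM + 1) lay closer to the GA3 average than to the ABA average. BR was nearer GA3 at 94.8% of the genes higher in ABA and at 88.3% of those higher in GA3. For SA the shares were 91.7% and 90.3%, for JA 86.9% and 92.0%, and for silver nitrate (AgNO3), an inhibitor of ethylene action, 84.9% and 90.5%. 6-BA stood with water on the ABA side, at 42.7% and 21.1%, beside 45.8% and 22.7% for H2O. The H2O shares restate the distances from H2O given above. The auxins were in between, 2,4-D at 68.0% and 67.6% and NAA at 54.9% and 62.6%. The 1-MCP exposure and its control in air were also in between, 1-MCP at 69.8% and 65.3% and air at 62.1% and 61.1%. These flowers were exposed to gas, with NaOH to absorb CO2. They thus differed from the vase treatments in more than the compound given. BR, SA, JA and AgNO3 remained above 73% in both directions with a pseudocount of 0.1 and under both scalings. For genes higher in ABA, NAA ranged from 42.9% to 56.8% and H2O from 39.2% to 51.3% over these settings, so their place on either side of the middle was not fixed. The genes were chosen for their distance between ABA and GA3, and extremes in those 2 averages make conditions elsewhere look intermediate.

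**Figure D5:**
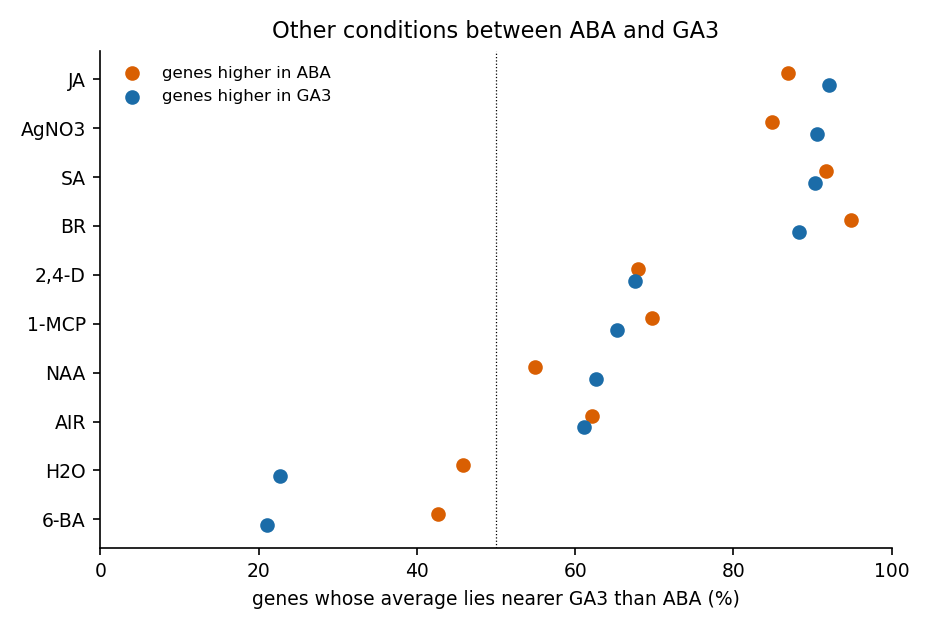
For each condition, points give the percent of genes whose average lies nearer GA3 than ABA, among 1174 genes higher in ABA (orange) and 1657 genes higher in GA3 (blue), and the dotted line marks 50%. BR, SA, JA and AgNO3 lie at 84.9% or more, and 6-BA and H2O lie under 46%.

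ABA was more often the extreme of the whole study than GA3 was. Of the genes higher in ABA, ABA had the highest of all 12 averages at 896, 76.3%, and GA3 the lowest at 244, 20.8%. BR was the lowest condition at 396 of them. Of the genes higher in GA3, ABA was the lowest of all at 1025, 61.9%, and GA3 the highest at 264, 15.9%. BR was the highest at 443 of these genes, SA at 352 and AgNO3 at 275. ABA was at least 2-fold above every other condition at 113 genes and at least 2-fold below every other condition at 46. Of the 113 genes, 85 were on the ABA side alone and 28 on opposite sides, and of the 46 genes 23 were of each kind. GA3 was at least 2-fold above every other condition at 4 genes and below at 2. The order of these ABA counts was not stable. With a pseudocount of 0.1 ABA was above all others at 164 genes and below at 236, and with averages of equal sums at 63 and 66. Conditions that resemble each other lower each other's count in this comparison, so it does not rank the size of responses.

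The lowest ABA averages against all other conditions were those of LOC112172696 and LOC112173429. LOC112172696 (NC_037093.1, bases 13857273 to 13860425) averaged 20.5 FPKM in H2O, 1.91 in ABA and 43.4 in GA3, with the next lowest condition, air, at 14.5. LOC112173429 (NC_037093.1, bases 51098591 to 51105868) averaged 6.52 in H2O, 0.777 in ABA and 19.8 in GA3, with H2O next. Both were chosen by this margin after their values were seen, as were the 6 genes of the next paragraph.

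The 4 genes with GA3 at least 2-fold above every other condition were LOC112179516, LOC112196882, LOC112179881 and LOC112192986. LOC112179516 (NC_037094.1, bases 13905537 to 13906480) averaged 4.70 FPKM in H2O, 1.57 in ABA and 22.1 in GA3, with JA next at 7.79. LOC112192986 (NC_037090.1, bases 15159003 to 15159982) averaged 51.9 in H2O, 25.6 in ABA and 178 in GA3, with JA next at 88.3. LOC112196882 was at 16.6 in H2O, 8.11 in ABA and 55.2 in GA3, and LOC112179881 at 1.02, 0.521 and 7.02. At these 4 genes ABA was below water and GA3 above it. The 2 genes with GA3 below every other condition were LOC112188933 and LOC112196106. LOC112188933 (NC_037089.1, bases 4750787 to 4752646) was abundant, at 285 in H2O, 325 in ABA and 63.0 in GA3, with JA next at 132. LOC112196106 was at 5.53 in H2O, 10.9 in ABA and 1.01 in GA3.

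The genes apart were spread over the genome. On the 7 chromosome sequences, 7.56% to 9.09% of the genes compared were higher in ABA and 10.7% to 12.4% were higher in GA3. Of genes higher in ABA that were followed by another compared gene, 123 of 1080, 11.4%, were followed by one also higher in ABA, beside 7.99% over all 13223 neighbouring pairs. For genes higher in GA3 it was 199 of 1535, 12.96%, beside 11.8%. Adjacent compared genes formed 10 runs of 3, 1 of 4 and 1 of 6 towards ABA, and 30 of 3, 3 of 4 and 1 of 5 towards GA3. Genes not compared were passed over in these runs. How many runs would arise from the shares over all genes was not tested. The longest run in each direction is described here, chosen after its values were seen. The run towards ABA held 6 genes higher in ABA on NC_037091.1 from 8006514 to 8265053, with log2 ratios from 1.24 to 3.92, and ended with LOC112198732. In it LOC112198730 was at 1165 FPKM in H2O, 2262 in ABA and 823 in GA3, and LOC112197339 at 474, 849 and 360. ABA was above H2O and GA3 below it at all 6 genes, and 3 of them were on the ABA side alone by the 2-fold rule. At 1 of the 6 genes the locus is shared with another identifier.

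The longest run towards GA3 held 5 genes within 27.2 kb, on NC_037094.1 from 14407693 to 14434846. All 5 were on the GA3 side alone on FPKM plus 1, with log2 ratios of ABA over GA3 from -2.52 to -1.24. LOC112180166, the most abundant of them, was at 127 FPKM in H2O, 101 in ABA and 332 in GA3. LOC112177457 was at 15.5 in H2O, 21.1 in ABA and 55.2 in GA3. LOC112177455, at the other end of the run, was at 0.555 in H2O, 0.240 in ABA and 6.10 in GA3. By FPKM alone, ABA was also more than 2-fold below water at LOC112177455. Reads of adjacent genes with near-identical sequence can be shared between them, and how alike these genes are was not examined.

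Summing transcripts hid opposite differences within some genes. Of 1292 genes with several transcripts of at least 1 FPKM in ABA or GA3, 135, which is 10.4%, had 1 transcript at least 2-fold higher in ABA and another at least 2-fold higher in GA3. Of these genes 17 were apart on the sum and 118 were not, beside 19.9% apart over all genes compared. Opposite transcripts offset each other in a sum, so a low share is built into the choice of these genes. LOC112170339 (NC_037093.1, bases 62987813 to 62992832) had 1 transcript at 28.9 FPKM in H2O, 14.96 in ABA and 100 in GA3, and another at 32.6, 67.1 and 4.45. Its sum was at 61.5 in H2O, 82.0 in ABA and 105 in GA3, a log2 ratio of -0.35. LOC112192877 (NC_037090.1, bases 415300 to 419570) had 1 transcript at 8.85 in H2O, 0.0524 in ABA and 35.7 in GA3. Its other transcript was at 6.39 in H2O, 8.59 in ABA and nearly 0 in GA3. The sum had a log2 ratio of -1.93, so this gene was apart on the sum as well. Reads of a gene are divided between its transcripts by estimation, and the error of that division is not in the averages.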

How the data were processed

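RNA of outer petals was sequenced by the authors in 39 samples of 13 conditions. The authors mapped reads with TopHat2 to RchiOBHm-V2, merged transcripts with Cufflinks and Cuffmerge and obtained FPKM with Cuffdiff, which the submitters' processing notes name. The deposited FPKM are 1 average per transcript and condition. Any scaling between conditions was not given in the sources. Depth is not in these averages, so no counting error could be attached. The values given for ethylene repeat those of air and were not used, which leaves 12 conditions.

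Of 38170 transcripts, those with a common identifier were summed, and 9 identifiers join neighbouring genes. Log2 ratios used a pseudocount of 1, a minimum of 1 FPKM in either condition and a 2-fold threshold. limma was planned for values per replicate only and was not run. The members, lists and rules were chosen with earlier results of these data known. The rule for named genes took those with the largest ratios in each direction, with at least 10 FPKM in the higher condition, and the largest of each side class. Of these, up to 2 per class and direction with a locus of their own were printed, beside the gene with the largest ratio. The lists of hormone, pigment and tissue genes and the promoter motifs could not be used without gene names and sequences. Only the assignment to side classes was checked, on set shifts added to a copy of the H2O averages. The class with both treatments on the same side of H2O was not part of that check. Alternatives were another pseudocount, minimum and threshold, scaling to equal medians or sums, unsummed transcripts and leaving out shared loci. Python 3.11.15, numpy 2.4.6, pandas 2.3.3 and matplotlib 3.10.9 were used.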

Additional observations from a re-analysis of the deposited data

How the results depend on the processing

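None of the 20 named ratios changed sign, but some counts changed their order, and the cause of the changes below was not tested. With a log2 threshold of 0.5 in place of 1, 7081 genes were apart, 3176 higher in ABA and 3905 in GA3, with 1358 on the ABA side, 3029 on the GA3 side, 917 on opposite sides of H2O and 187 with both on the same side. With a pseudocount of 0.1, 4005 genes were apart, 1605 higher in ABA and 2400 in GA3. Of these, 733 were on the ABA side, 1521 on the GA3 side, 414 on opposite sides and 60 with both on the same side. At this pseudocount ABA was below all other conditions at 236 genes and above at 164. GA3 was above all others at 11 and below at 17. With the side given by the larger ratio to H2O, 914 genes fell to ABA and 1917 to GA3. With averages of equal sums, an alternative chosen after seeing the data, 75.2% of the genes apart were higher in GA3, 173 genes of at least 100 FPKM were higher in ABA and 213 in GA3, against 306 and 122 as deposited, ABA was above all others at 63 genes and below at 66, and GA3 below at 1. Leaving out shared loci, also chosen afterwards, left 5 genes with both treatments at least 2-fold from H2O on the same side, and a minimum of 5 FPKM left 82 genes with opposite transcripts. Of the 20 named ratios, 19 stayed at least 2-fold with equal sums, and LOC112177387 did not. No paired analysis was possible because the averages carry no replicate numbers, and for the same reason no replicate could be left out. Gene lists and promoter motifs were not run.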
